A study of Homo sapiens with 12 samples.

Results

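The 10 genes described here encode brakes on mitogen-activated protein kinase (MAPK) signalling. They comprise 6 dual-specificity phosphatases (DUSP1, DUSP2, DUSP4, DUSP5, DUSP6 and DUSP10), the Sprouty genes SPRY1 and SPRY2, and the Sprouty-related genes SPRED1 and SPRED2. They were picked by gene symbol from the 58233 genes of the expression table, and each symbol matched 1 gene. All libraries came from HL-60, an established human acute myeloid leukaemia line that carries an activated NRAS gene and that the labels give as wild-type myeloid cells from blood. The 4 groups held 3 libraries each: untreated cells, 100 nM all-trans retinoic acid (ATRA), 500 nM palbociclib, which inhibits the cyclin-dependent kinases CDK4 and CDK6, and both drugs at the same doses (combination). Treatment lasted 3 h, and the labels name no engineered allele in any group. The question was how ATRA, palbociclib and their combination change gene expression in leukaemia that is not of the promyelocytic subtype.

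In the RAS to ERK cascade, RAS activates RAF kinases, which activate MEK, which phosphorylates the kinases ERK1 and ERK2. Several genes that ERK signalling switches on encode its own inhibitors: DUSP enzymes remove phosphate from MAP kinases, Sprouty proteins act between receptors and RAS, and SPRED proteins bring the RAS inhibitor neurofibromin to the membrane. Their transcripts are therefore often read beside ERK activity, which was not measured in these libraries.

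Expression was given as RPKM, which scales reads to gene length and library size, rounded by the authors to whole numbers, so differences below 1 RPKM within a gene could not be seen. The deposited values sum to between 358455 and 390247 per library, and the read depth of each library is not given in the sources used here, whose methods state only an average over the samples. Of the HL-60 markers, MPO lay between 1077 and 1579 RPKM over the 12 libraries and PRTN3, AZU1, CTSG and CD33 were present, but ELANE, the neutrophil elastase gene, was listed at 0 or 1. Their summed level ranged from 1488 to 1708 RPKM in untreated, 1357 to 1548 in ATRA, 1642 to 1868 in palbociclib and 1375 to 1624 in combination libraries. The 7 markers of lymphoid, erythroid, fibroblast and epithelial cells were listed at 0 in every library. Of 10 retinoid control genes, RARB, CYP26A1, CYP26B1 and TGM2 were listed at 0 in every library. DHRS3, HIC1, ASB2 and CD38 reached the filter used for testing only through libraries with ATRA, so their direction was fixed by it, and they lay at 0 to 3 RPKM untreated and at 8 to 48 RPKM with ATRA. CEBPE, a granulocyte transcription factor above the filter in all groups, stood at 34, 32 and 37 RPKM untreated and at 116, 116 and 118 RPKM with ATRA. RARA, also above the filter in all groups, stood at 10, 11 and 10 RPKM untreated and at 15, 18 and 16 with ATRA. In the test described below RARA was not called with ATRA alone. It was called higher in the combination against untreated and for the mean ATRA effect (limma adjusted p = 8.37e-04 and 1.77e-04). That combination call held in 1 of 12 fits that left out 1 library.

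The phosphatase genes DUSP2, lower with ATRA, and DUSP6, with higher values that missed the test's threshold, showed the widest differences of the 10, and their promoters are shown for that reason. DUSP2 (ENSG00000158050) is on the minus strand of chromosome 2, from 96143169 to 96145440, with 4 exons in its canonical transcript (GENCODE release 44, GRCh38). DUSP6 (ENSG00000139318) is on the minus strand of chromosome 12, from 89347235 to 89352501, with 3 exons. The 250 bases before each transcription start come from RefSeq (GRCh38.p14), lie outside the transcript and are written 5′ to 3′ on the gene's strand at chr2:96145441-96145690 and chr12:89352502-89352751. Capitals mark matches, on either strand, to the cAMP response element TGACGTCA, the AP-1 element TGANTCA, the E-box CACGTG or the retinoid receptor hexamers AGGTCA and GGTTCA.
DUSP2: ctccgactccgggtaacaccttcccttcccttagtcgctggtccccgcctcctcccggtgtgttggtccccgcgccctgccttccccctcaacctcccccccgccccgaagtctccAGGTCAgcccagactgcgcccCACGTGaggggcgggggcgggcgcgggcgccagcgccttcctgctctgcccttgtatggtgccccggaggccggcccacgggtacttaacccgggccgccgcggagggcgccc
DUSP6: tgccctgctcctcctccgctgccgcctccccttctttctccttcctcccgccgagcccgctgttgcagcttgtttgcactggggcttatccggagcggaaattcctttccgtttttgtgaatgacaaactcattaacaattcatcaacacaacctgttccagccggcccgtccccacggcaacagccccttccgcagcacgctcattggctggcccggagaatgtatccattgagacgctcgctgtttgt

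The DUSP2 window held 1 E-box, 113 to 108 bases before the start, and 1 AGGTCA hexamer, 134 to 129 bases before it. The DUSP6 window held none of these letters and so shows no capitals. G and C made up 74% of the DUSP2 window and 57.2% of the DUSP6 window. Over all 35116 promoters in the RefSeq table, 6.34% held CACGTG, 12.1% held AGGTCA, 7.16% held GGTTCA, 6.57% held TGANTCA and 1.65% held TGACGTCA in the same window. Of the 8 members with a promoter in the table (13 promoters in all), DUSP1 also held an E-box and was the only member with TGACGTCA, and DUSP10 also held an AGGTCA match. These matches are descriptions of letters and not of binding.

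DUSP2, also called PAC-1, is a nuclear phosphatase of haematopoietic cells that acts on ERK and p38. DUSP2 stood at 11, 11 and 11 RPKM in the untreated libraries, at 7, 7 and 7 RPKM with ATRA, at 11, 10 and 10 RPKM with palbociclib and at 6, 6 and 6 RPKM with the combination. All 6 libraries with ATRA, alone or in the combination, lay below all 6 libraries without it. Between ATRA and untreated libraries alone, 29.6% of all tested genes did not overlap, and between combination and palbociclib libraries 18.1%. The share over all genes for the split of 6 against 6 was not computed. In bulk RNA, fewer cells expressing a gene and less RNA per cell cannot be told apart. The mean fell by 36.4% with ATRA and fell by 45.5% with the combination.

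In limma on log2(RPKM + 0.1), with calls at an adjusted p under 0.001, DUSP2 was lower with ATRA than untreated by a log2 fold change of −0.64 ± 0.056 (SE, n = 3 against 3, adjusted p = 2.23e-05). The combination against untreated gave −0.86 ± 0.056 (limma adjusted p = 2.22e-06), and the combination against palbociclib gave −0.77 ± 0.056 (limma adjusted p = 6.88e-06). The mean ATRA effect, averaged over cells without and with palbociclib, was −0.71 ± 0.039 (limma adjusted p = 3.51e-07). On the whole-number scale the SD of DUSP2 was 0 in the untreated, ATRA and combination groups. Its SE therefore rests on the palbociclib libraries and on spread that limma shares between genes, not on a spread seen within those groups. DUSP2 ranked 165th among the 7820 tested genes from the most lowered in the ATRA comparison and 130th in the combination comparison. If every printed value is off by up to 0.5 RPKM from rounding, the log2 ratio of the means with ATRA still lies between −0.82 and −0.49. The call in the combination against palbociclib was lost when only those 6 libraries entered the limma fit (adjusted p = 0.00276).

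Palbociclib alone left DUSP2 within the untreated range in 1 of 3 libraries and 1 RPKM below it in the other two. The log2 fold change was −0.09 (95% interval −0.21 to 0.03, limma adjusted p = 0.455). Adding palbociclib to ATRA took DUSP2 from 7 to 6 RPKM in each library, a log2 fold change of −0.22 (95% interval −0.34 to −0.10) that did not pass the test (limma unadjusted p = 0.00253, adjusted p = 0.331). That step equals 1 unit of the rounded scale, and rounding alone allows a ratio with no difference. The departure from additivity of the drugs was −0.13 (95% interval −0.30 to 0.05, limma adjusted p = 1).

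DUSP6, also called MKP-3, is a cytoplasmic phosphatase selective for ERK and a widely used transcript readout of ERK signalling. DUSP6 stood at 4, 7 and 5 RPKM in untreated replicates 1 to 3, at 8, 11 and 9 RPKM with ATRA, at 6, 8 and 7 RPKM with palbociclib and at 10, 12 and 11 RPKM with the combination. The ATRA and untreated libraries did not overlap, nor did the combination libraries overlap either the untreated or the palbociclib libraries. The palbociclib libraries overlapped the untreated ones. In each of the 4 groups replicate 1 was lowest and replicate 2 highest, and ATRA stood exactly 4 RPKM above untreated at each replicate number. A pairing of untreated with treated libraries by number was not assumed, so this match is only a description.

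The mean DUSP6 level was 75% higher with ATRA and 106% higher with the combination than untreated, yet no comparison passed the threshold of 0.001 in the unblocked limma fit. The log2 fold change was 0.82 ± 0.19 with ATRA (SE, n = 3 against 3, limma adjusted p = 0.0115) and 1.06 ± 0.19 with the combination (limma adjusted p = 0.00182). The combination against palbociclib gave 0.65 ± 0.19 (limma adjusted p = 0.049), and it was called higher once replicates of the same number, which deviated together in these 2 groups, were blocked (limma adjusted p = 0.000984). That block was fitted over all 12 libraries, the untreated ones included. The mean ATRA effect was 0.74 ± 0.13 (limma adjusted p = 0.00194).

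With palbociclib alone the DUSP6 log2 fold change was 0.41 (95% interval −0.01 to 0.83, limma adjusted p = 0.299). Each palbociclib library was 1 or 2 RPKM above the untreated library of the same number, although these were not taken as pairs. Palbociclib added to ATRA gave 0.24 (95% interval −0.18 to 0.66, limma adjusted p = 1), with overlapping libraries. At each replicate number, however, the combination stood 1 or 2 RPKM above ATRA. With replicates blocked over all 12 libraries the interval was 0.04 to 0.45, and DUSP6 was still not called (limma adjusted p = 0.452). The departure from additivity was −0.17 (95% interval −0.77 to 0.43, limma adjusted p = 1). An antisense long non-coding gene shares 28.6% of the exonic bases of DUSP6 and is listed at 0 in every library. The methods give htseq-count's default settings, under which reads are assigned by strand, but whether the library kit kept strand is not given in the sources used here. DUSP6 reached the 5 RPKM of the filter in 11 of 12 libraries, so its test did not depend on 1 group.

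**Figure D1:**
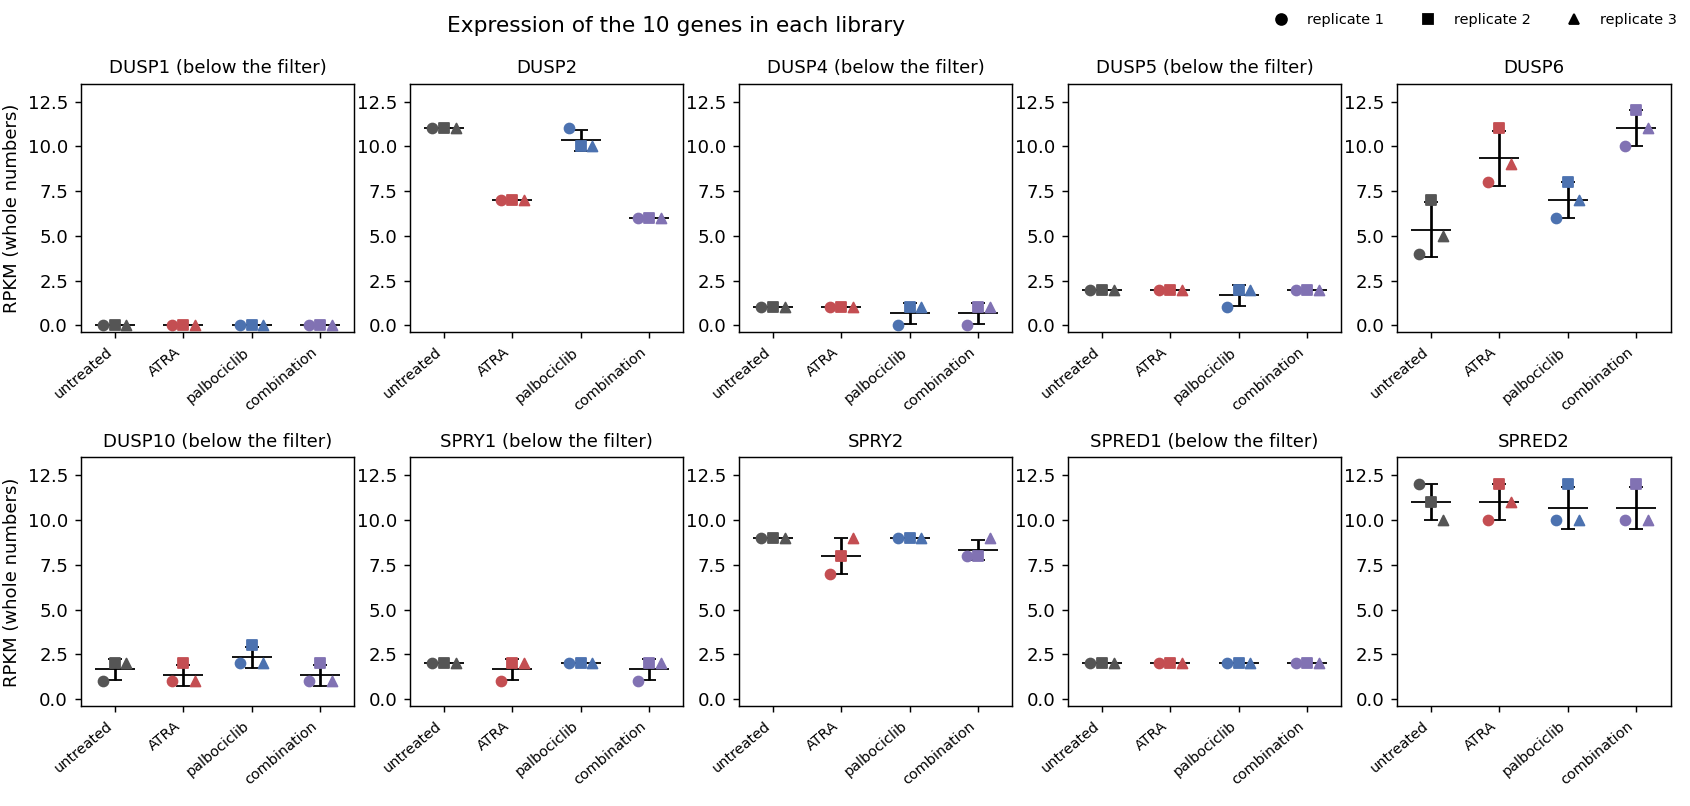
Each panel shows 1 gene, with the treatment group on the x axis and the level in whole RPKM on the y axis. Symbols stand for single libraries (circle, square and triangle for replicates 1, 2 and 3), horizontal lines for group means and bars for the SD (n = 3). DUSP2 falls from 11 RPKM untreated to 7 with ATRA and 6 with the combination, DUSP6 lies at 4 to 7 RPKM untreated and at 10 to 12 with the combination, and 6 genes stay at or below 3 RPKM.

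The order of the 2 phosphatases differed between libraries with and without ATRA. RPKM is scaled by gene length, so the levels can roughly be set side by side. The scaling does not correct for the exonic bases that DUSP6 shares with the antisense gene. In ATRA replicate 1 the levels were 7 and 8 RPKM, 1 unit of the rounded scale apart. DUSP6 lay below DUSP2 in every untreated library, by 4 to 7 RPKM, and in every palbociclib library, by 2 to 5 RPKM. DUSP6 lay above DUSP2 in every ATRA library, by 1 to 4 RPKM, and in every combination library, by 4 to 6 RPKM. This is a description of the values already tested gene by gene, and the swap itself was given no test.

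**Figure D2:**
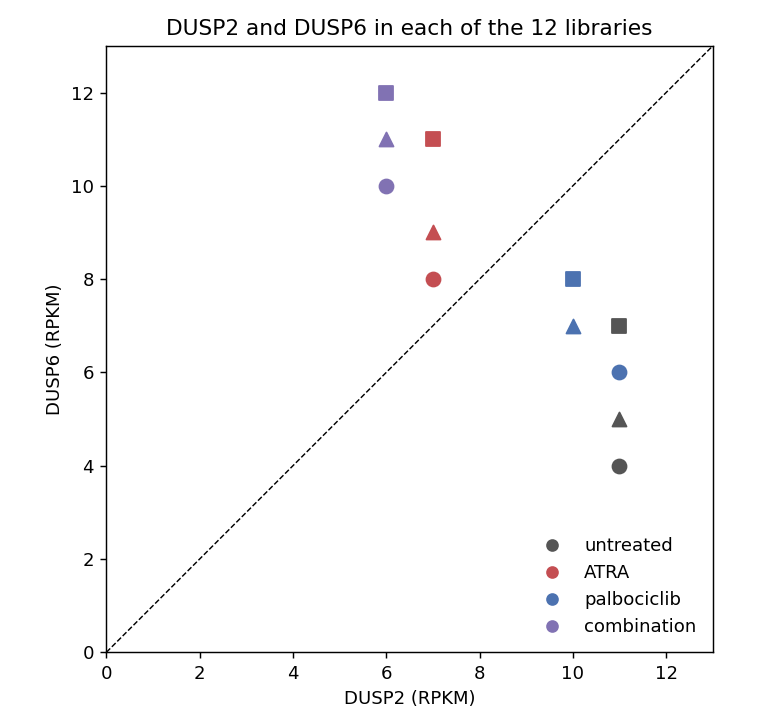
The level of DUSP2 (x axis, RPKM) is plotted against that of DUSP6 (y axis, RPKM) for the 12 libraries, coloured by group, with circles, squares and triangles for replicates 1, 2 and 3. The dashed line marks equal levels: the 6 libraries with ATRA lie above it and the 6 without ATRA lie below it.

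SPRY2, a Sprouty protein that restrains receptor signalling to RAS, was the only Sprouty gene above the filter. SPRY2 stood at 9, 9 and 9 RPKM untreated, at 7, 8 and 9 RPKM with ATRA, at 9, 9 and 9 RPKM with palbociclib and at 8, 8 and 9 RPKM with the combination. Every group held at least 1 library at 9 RPKM, so all groups overlapped. The log2 fold change was −0.18 with ATRA (95% interval −0.37 to 0.02, limma adjusted p = 0.188) and −0.11 with the combination (95% interval −0.30 to 0.08, limma adjusted p = 0.366). The mean ATRA effect on SPRY2 was −0.14 (95% interval −0.28 to −0.01, limma unadjusted p = 0.0393, adjusted p = 0.107). SPRY2 is on the minus strand of chromosome 13, from 80335976 to 80341126, with 2 exons.

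SPRED2, which binds neurofibromin and restrains RAS, was as abundant as DUSP2 in untreated cells. SPRED2 stood at 12, 11 and 10 RPKM untreated, at 10, 12 and 11 RPKM with ATRA, at 10, 12 and 10 RPKM with palbociclib and at 10, 12 and 10 RPKM with the combination. The 4 groups spanned the same range of 10 to 12 RPKM. The log2 fold change with ATRA was 0 (95% interval −0.24 to 0.24, limma adjusted p = 1), an interval that still allows changes of that size in either direction. For palbociclib and for the combination against untreated it was −0.05 (95% interval −0.29 to 0.20). SPRED2 is on the minus strand of chromosome 2, from 65310851 to 65432637, with 6 exons.

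**Figure D3:**
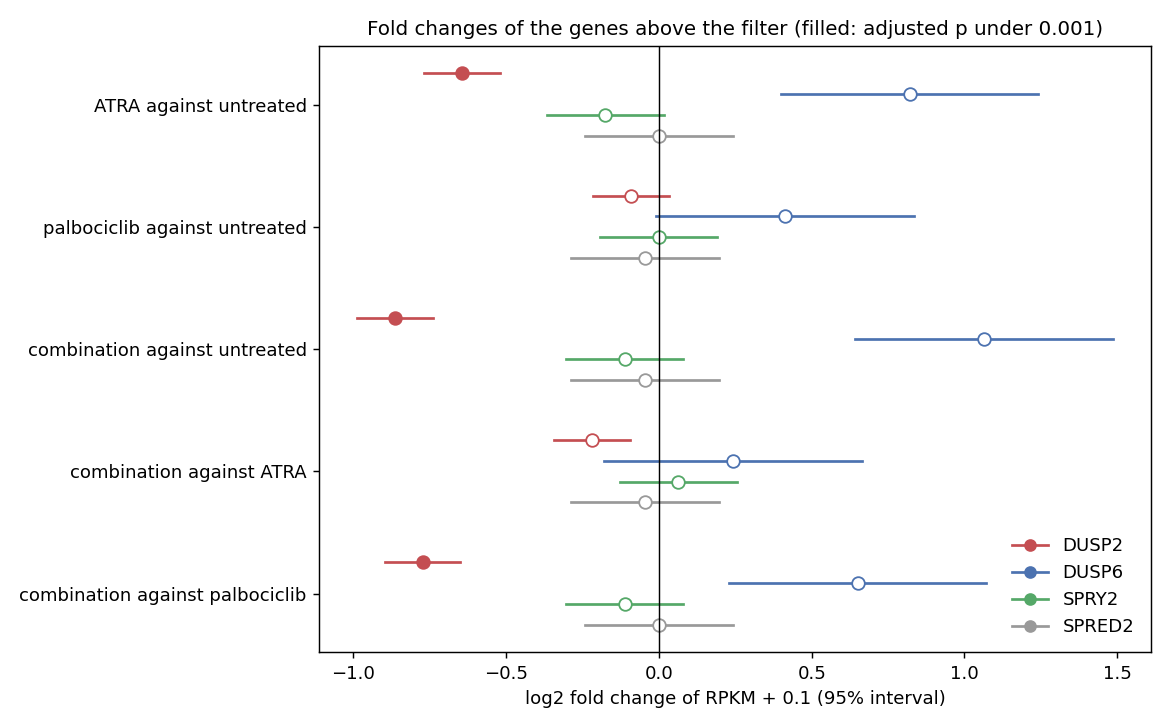
Log2 fold changes of RPKM + 0.1 (x axis) are shown for the 4 genes above the filter in the 5 pairwise comparisons (y axis), as points with 95% intervals from limma. Filled points passed an adjusted p of 0.001. DUSP2 is filled in the 3 comparisons of a group with ATRA against one without it, DUSP6 lies to the right of 0 and is open throughout, and the intervals of SPRY2 and SPRED2 cross 0.

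The remaining 6 members lay below the filter of 5 RPKM in at least 3 libraries and were not tested with it. With a filter of 1 RPKM, 5 of them could be fitted and none passed in any of the 8 comparisons, the lowest limma adjusted p being 0.202, for the mean ATRA effect on DUSP10. DUSP1, the immediate early phosphatase MKP-1, was listed at 0 in all 12 libraries. It lies on the minus strand of chromosome 5, from 172768096 to 172771195, inside an antisense long non-coding gene that shares none of its exonic bases and is also listed at 0. With rounded values this says only that the level was too low to be written as 1 RPKM.

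DUSP5, a nuclear phosphatase selective for ERK, was at 2 RPKM in 11 libraries and at 1 RPKM in palbociclib replicate 1. DUSP4, a nuclear phosphatase of ERK and JNK, was at 1 RPKM in 10 libraries and listed at 0 in replicate 1 of palbociclib and of the combination. DUSP10, which acts on p38 and JNK, was at 1, 2 and 2 RPKM untreated, 1, 2 and 1 with ATRA, 2, 3 and 2 with palbociclib and 1, 2 and 1 with the combination. The groups overlapped for each of these genes, although DUSP10 was 1 RPKM lower with the combination than with palbociclib at each of the 3 replicate numbers. That DUSP10 difference was −0.81 on the log2 scale (limma adjusted p = 0.301) with the filter of 1 RPKM, and its adjusted p was 0.0515 with the same filter and blocked replicates, a fit added after the data were seen.

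SPRY1 was at 2 RPKM in every untreated and palbociclib library and at 1, 2 and 2 RPKM in both the ATRA and the combination libraries. SPRED1 was at 2 RPKM in all 12 libraries. In the untreated group the members therefore ranked as DUSP2 and SPRED2 (11 RPKM each), SPRY2 (9 RPKM), DUSP6 (5.33 ± 1.53 RPKM, SD, n = 3), then DUSP5, SPRY1 and SPRED1 (2 RPKM each), DUSP10 (1.67 ± 0.58 RPKM), DUSP4 (1 RPKM) and DUSP1 (0). The neighbours DUSP2 and SPRED2 overlapped, as did DUSP10 with the genes next to it, whereas SPRED2 and SPRY2, and SPRY2 and DUSP6, did not overlap, nor did DUSP6 and the genes at 2 RPKM. The median untreated level of the 7820 tested genes was 12.7 RPKM, above every member.

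The calls of members are set here beside the share of all genes called. With ATRA, 1 of the 4 tested members passed (DUSP2, lower), where 4.72% of all 7820 tested genes passed. With the combination against untreated it was again 1 of 4 (DUSP2), where 8.04% of all genes passed, and with the combination against palbociclib 1 of 4 (DUSP2), where 3.11% passed. For the mean ATRA effect 1 of 4 passed (DUSP2), where 9.62% of all genes passed.

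None of the 4 passed in limma with palbociclib alone, where 0.499% of all genes passed and 1359 genes had an unadjusted p under 0.05, none of them a member. None passed for the mean palbociclib effect, where 0.575% of all genes passed and 1339 had an unadjusted p under 0.05, DUSP2 and DUSP6 among them. For the combination against ATRA and for the departure from additivity limma called 0% of all genes, with 287 and 236 genes at an unadjusted p under 0.05, of which DUSP2 in the former was the only member.

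At an adjusted p under 0.05 both DUSP2 and DUSP6 passed in the 4 comparisons in which DUSP2 was called. That threshold was passed by 20.3% of all genes with ATRA, 30.4% with the combination, 12.5% in the combination against palbociclib and 28.4% for the mean ATRA effect. Libraries of both genes did not overlap with ATRA (2 of 4 members, 29.6% of all genes), with the combination (2 of 4, 36% of all genes) or in the combination against palbociclib (2 of 4, 18.1%). DUSP2 alone did not overlap in the combination against ATRA (1 of 4, 3.39% of all genes), and all 4 members overlapped with palbociclib alone, where 15.2% of all genes did not overlap. The median log2 fold change of the 4 members with ATRA was −0.09, beside −0.01 over all tested genes. The ATRA and combination comparisons share the untreated libraries, and are not independent of each other.

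The genes most like DUSP2 over the 12 libraries, by the root mean square difference of their centred log2 profiles, were ERF (0.0875), TRIB3 (0.0919) and AMD1 (0.105). ERF encodes an ETS-family repressor that ERK phosphorylates, TRIB3 a pseudokinase of stress responses and AMD1 an enzyme of polyamine synthesis. ERF stood at 21, 21 and 18 RPKM untreated and at 13, 12 and 12 RPKM with ATRA. TRIB3 stood at 20, 20 and 19 RPKM untreated and at 13, 13 and 14 RPKM with ATRA. AMD1 stood at 33, 29 and 30 RPKM untreated and at 19, 18 and 19 RPKM with ATRA. In all 3 genes, as in DUSP2, the ATRA libraries lay below the untreated ones. The 3 genes were picked for their likeness to DUSP2 over these same libraries, so the shared direction follows from that choice.

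Most other phosphatase and Sprouty genes of the same families were low. Of 7 listed (DUSP7, DUSP8, DUSP9, DUSP16, SPRY3, SPRY4 and SPRED3), DUSP7 alone was tested, at 13 to 17 RPKM, and it passed in none of the 8 comparisons (mean ATRA effect 0.10 ± 0.056, limma adjusted p = 0.242). SPRY4, often counted among the ERK-induced transcripts, was at 2, 2 and 2 RPKM untreated, 1, 1 and 1 with ATRA, 2, 3 and 3 with palbociclib and 1, 1 and 1 with the combination. It lay below the filter and was not tested.

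Of 19 listed genes of the RAS to ERK cascade, which these genes restrain, 16 were tested, and limma called 0 in each of the 8 comparisons. GAB2 (1 RPKM in every library), BRAF (2 to 4 RPKM) and KSR1 lay below the filter and were not tested. KSR1 stood at 1, 1 and 1 RPKM untreated, at 2, 3 and 4 with ATRA, at 1, 2 and 2 with palbociclib and at 3, 4 and 4 with the combination. With ATRA 4.72% of all genes were called and for the mean ATRA effect 9.62%, so a count of 0 among 16 is near the background. At an unadjusted p under 0.05 in limma it was 6 of 16 with ATRA, 7 with the combination and 6 for the mean ATRA effect. Of all 7820 tested genes, 2586, 3165 and 3053 were under it in the same comparisons, so these counts are near the background too. The most abundant were GRB2, the receptor adaptor, at 66 to 71 RPKM, RPS6KA1, an ERK-activated kinase, at 48 to 79 RPKM, PTPN11 at 31 to 41 RPKM and NRAS at 25 to 31 RPKM. RPS6KA1 stood at 48, 59 and 55 RPKM untreated and at 62, 75 and 73 RPKM with ATRA (log2 fold change 0.37 ± 0.11, limma adjusted p = 0.0316). The median log2 fold change of the 16 genes for the mean ATRA effect was 0.0024, beside −0.01 over all tested genes.

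Among other inhibitors of RAS and ERK, 10 of 13 were tested, and 2 rose with ATRA, where 4.72% of all genes were called. PTPN7, a haematopoietic tyrosine phosphatase that acts on ERK and p38, stood at 59, 57 and 61 RPKM untreated, at 94, 103 and 98 with ATRA, at 59, 60 and 61 with palbociclib and at 95, 105 and 95 with the combination. Its log2 fold change with ATRA was 0.74 ± 0.056 (limma adjusted p = 9.41e-06). PTPN6, the phosphatase SHP-1 that damps receptor signalling in blood cells, stood at 45, 49 and 48 RPKM untreated and at 73, 80 and 81 RPKM with ATRA (0.72 ± 0.064, limma adjusted p = 2.63e-05). Both ATRA calls were lost when only the 6 ATRA and untreated libraries were fitted (limma adjusted p = 0.00155 for PTPN7 and 0.00277 for PTPN6).

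Both genes also passed in the combination against untreated, in the combination against palbociclib and for the mean ATRA effect, and the other 8 tested inhibitors passed in no comparison. In the combination against palbociclib the PTPN6 call was lost without palbociclib replicate 1 or 2 or combination replicate 2 or 3, with a limma adjusted p of at most 0.00146 in those fits. With only the libraries compared, both genes were lost in the combination against untreated (limma adjusted p = 0.00143 for PTPN6 and 0.00174 for PTPN7). They were also lost there against palbociclib (0.00883 for PTPN6 and 0.00337 for PTPN7). The fold changes of PTPN6 and PTPN7 with ATRA were close in size to that of DUSP6 and opposite in sign to that of DUSP2.

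Of 14 listed transcripts that ERK signalling is known to switch on, 5 were tested. MYC fell for the mean ATRA effect, for which 9.62% of all genes were called, and FOSL1 was also called lower but reached the filter only through the groups where it was high. MYC, the growth-promoting transcription factor, stood at 168, 184 and 205 RPKM untreated, at 72, 73 and 103 with ATRA, at 171, 174 and 203 with palbociclib and at 72, 70 and 107 with the combination. Its log2 fold change was −1.18 ± 0.18 with ATRA (limma adjusted p = 9.22e-04) and −1.17 ± 0.13 for the mean ATRA effect (limma adjusted p = 5.03e-05). With ATRA alone the MYC call held in 2 of 12 fits that left out 1 library, namely without ATRA replicate 3 or combination replicate 3 (highest limma adjusted p = 0.00623), and for the mean ATRA effect it held in all 12. MYC also passed in the combination against untreated (−1.18 ± 0.18, limma adjusted p = 6.12e-04), a call that held in 3 of 12 such fits (highest adjusted p = 0.00402). With only the libraries compared, the MYC calls with ATRA and with the combination against untreated were both lost (limma adjusted p = 0.011 and 0.011). The combination against palbociclib gave −1.16 ± 0.18 (limma adjusted p = 0.00142), which was called with blocked replicates (limma adjusted p = 2.88e-05).

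FOSL1, an AP-1 subunit, stood at 5, 5 and 5 RPKM untreated, at 3, 3 and 3 with ATRA, at 5, 5 and 5 with palbociclib and at 2, 2 and 3 with the combination. Its libraries without ATRA sat exactly at the filter of 5 RPKM and those with ATRA below it, so its tests are given as a description. It passed in the combination against untreated (−1.09 ± 0.14, limma adjusted p = 1.88e-04) and for the mean ATRA effect (−0.91 ± 0.097, limma adjusted p = 5.03e-05), and with ATRA alone it did not (−0.72 ± 0.14, limma adjusted p = 0.00403). The combination call was lost without any 1 of the untreated libraries or combination replicate 2 (highest limma adjusted p = 0.00129), and the call against palbociclib (−1.09 ± 0.14, limma adjusted p = 3.73e-04) held in 4 of 12 such fits (highest 0.00266). With only the libraries compared, both FOSL1 calls were lost (limma adjusted p = 0.0105 against untreated and 0.0237 against palbociclib). ETV4, ETV5 and IER2 passed in no comparison. IER2, an immediate early gene, stood at 5, 8 and 8 RPKM untreated and at 12, 12 and 11 RPKM with ATRA (limma adjusted p = 0.00678). EGR1, an immediate early factor, was listed at 0 in all but 2 libraries, which were at 1 RPKM. IER3 was listed at 0 in every untreated and palbociclib library and at 2, 2 and 1 RPKM in both the ATRA and the combination libraries. CCND1 went the other way, from 2, 2 and 2 RPKM untreated to 1, 1 and 2 with ATRA and with the combination. Both lay below the filter and were not tested.

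In the JNK and p38 cascades, on which DUSP1, DUSP10 and DUSP2 also act, 9 of 14 genes were tested and 3 passed for the mean ATRA effect, where 9.62% of all genes passed. MAPKAPK2, a kinase activated by p38, stood at 27, 25 and 25 RPKM untreated, at 59, 66 and 67 with ATRA, at 29, 27 and 28 with palbociclib and at 61, 69 and 70 with the combination. Its log2 fold change with ATRA was 1.31 ± 0.071 (limma adjusted p = 7.43e-07). MAP2K3, which activates p38, rose from 14, 15 and 13 RPKM to 24, 23 and 22 RPKM with ATRA (0.71 ± 0.072, limma adjusted p = 5.90e-05), a call lost when only the ATRA and untreated libraries were fitted (adjusted p = 0.00392).

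MAPK14, which encodes p38 alpha itself, was lower for the mean ATRA effect (−0.42 ± 0.053, limma adjusted p = 1.53e-04), at 25, 26 and 26 RPKM untreated and 18, 20 and 21 RPKM with ATRA. In the combination against palbociclib it gave −0.46 ± 0.075 (limma adjusted p = 0.00208), called with blocked replicates (limma adjusted p = 2.64e-04). MAPKAPK2 and MAP2K3 also passed in the combination against untreated and against palbociclib. In the combination against palbociclib the MAP2K3 call held in 3 of 12 fits that left out 1 library, those without untreated replicate 2 or 3 or ATRA replicate 1 (highest limma adjusted p = 0.00391). With only the libraries compared, MAP2K3 was lost in the combination against untreated and against palbociclib (limma adjusted p = 0.00291 and 0.0126). MAPKAPK2 was lost against palbociclib in that fit (0.00132).

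**Figure D4:**
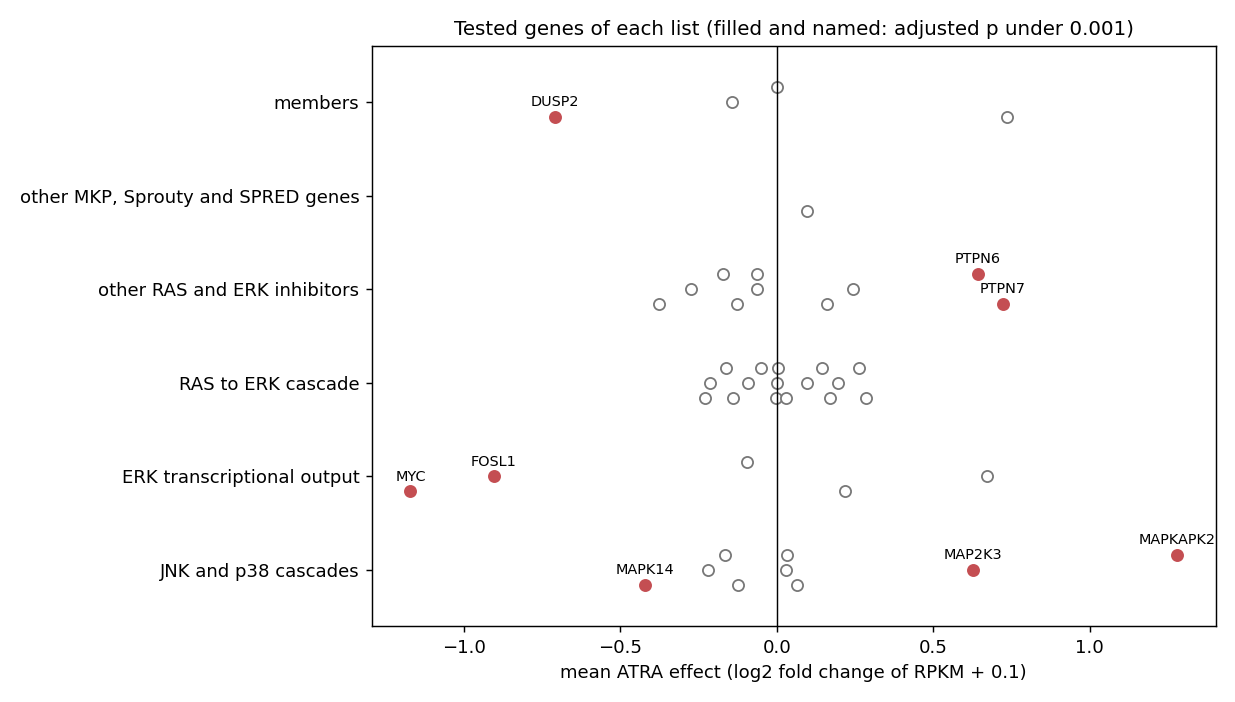
Each point is a tested gene of 1 list (y axis) at its mean ATRA effect as the log2 fold change of RPKM + 0.1 (x axis). Filled and named points passed a limma adjusted p of 0.001: DUSP2, MYC, FOSL1 and MAPK14 lie to the left of 0, PTPN6, PTPN7, MAP2K3 and MAPKAPK2 to the right, and all 16 genes of the RAS to ERK cascade are open.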

How the data were processed

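Poly(A) RNA of HL-60 cells was sequenced after TruSeq library preparation. Per the labels and methods, the authors aligned reads to hg38 with HISAT2 and counted them with HTSeq's htseq-count at its defaults, which assign reads by strand. Tool versions, each library's read number and whether the kit kept strand are not given in the sources used here. The deposited score values are RPKM per gene that the authors rounded to whole numbers, and they are not counts. From them log2(RPKM + 0.1) was computed, genes with at least 5 RPKM in at least 3 of 12 libraries were kept (7820 of 58233), and limma 3.58.1 in R 4.3.3 (a mean per group, trended moderation, all 12 libraries) gave 5 pairwise comparisons, the departure from additivity and the mean effect of each drug. The p-values were adjusted by Benjamini-Hochberg over all tested genes, with calls at 0.001. The study's own test was made for counts and could not be applied to rounded RPKM. The study's general statement is that data came from independent experiments, but its sequencing methods speak of barcoded triplicates and the labels name no separate cultures. The p-values therefore rest on the spread between these libraries, which may be technical, moderated over genes. Where rounding left an SD of 0 in a group, as for DUSP2, they do not measure the spread within that group. With 3 libraries a group and no depth per library, each SE rests on the residual spread over all 12 libraries, moderated over genes. An SD printed for a group describes only its own 3 libraries.

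The members, gene lists and tests were chosen with earlier results of these data known. All members were named, with the genes of the lists called in any comparison, up to 4 of the most abundant genes of a list with no call, and the 3 genes most like each called member. ERK targets not called, ELANE, CEBPE, SPRY4, the untested genes of the RAS to ERK cascade and RPS6KA1's test were named after their values were seen. Sequences were read from RefSeq promoters (GRCh38.p14) and coordinates from GENCODE release 44. Scripts were tested on simulated data.

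Alternatives were another filter, pseudocount, scaling, moderation, threshold or set of libraries, each library left out, and the replicate number as a block, alone or, added after the data were seen, with a filter of 1 RPKM. Every blocked fit used all 12 libraries, so comparisons between treated groups also drew on the untreated ones. Deviations from group means correlated between libraries of the same number at 0.438 to 0.908 among the 3 treated groups and at 0.0453 to 0.367 between untreated and treated libraries. The number was therefore taken as pairing the treated groups, where every correlation exceeded 0.1. For the untreated group the link was weaker and uneven, so a pairing was not assumed. Untreated replicate 2 correlated with treated libraries of its number at 0.305 to 0.367, and replicates 1 and 3 at 0.0453 to 0.164.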

Additional observations from a re-analysis of the deposited data

How the results depend on the processing

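DUSP2 passed under every alternative in the ATRA and combination comparisons with untreated and for the mean ATRA effect. In the combination against palbociclib it was lost with only those groups fitted, which left 0 members called there; with 3 against 3 libraries that fit has fewer residual degrees of freedom. The number of members called was otherwise 1 or 2, the second always DUSP6. It was 2 with the replicate block (ATRA, combination and mean ATRA effect, where DUSP6 had limma adjusted p = 2.13e-04, 3.36e-05 and 3.04e-05, and the combination against palbociclib), with an adjusted p under 0.05 in the same 4 comparisons, and with median centring (combination and mean ATRA effect). Over the fits that left out 1 library it was 1 to 2 in the combination against untreated and for the mean ATRA effect, the 2 arising without untreated replicate 2 (DUSP6 limma adjusted p = 6.98e-04 and 5.62e-04). The untreated libraries deviated less closely with treated ones of the same number than the treated groups did with each other. The block raised the share of all genes called from 4.72% to 9.23% with ATRA, from 8.04% to 15.4% with the combination, from 3.11% to 6.15% in the combination against palbociclib and from 9.62% to 16.1% for the mean ATRA effect. It changed no other member's call. Of the lists it added RPS6KA1, higher with ATRA, the combination and the mean ATRA effect (limma adjusted p = 8.68e-05, 2.02e-05 and 2.98e-05). It also added MAPK14, lower with ATRA and the combination (5.23e-04 and 2.60e-04), and PEA15 and MAPKAPK3, lower for the mean ATRA effect (6.44e-04 and 8.72e-04). Of the retinoid control genes, RARA was called higher with ATRA under the block (2.31e-04). RASAL3 was called higher with the combination (6.52e-04), at 4, 4 and 4 RPKM untreated and 6, 6 and 6 with the combination. RASAL3 reached the filter only through treated libraries, so its direction was fixed by the filter and is given as a description. With the block and a filter of 1 RPKM, added after the data were seen, 2 members were called with the combination and for the mean ATRA effect, and DUSP6 was not called in the combination against palbociclib (limma adjusted p = 0.0043). The cause of these shifts was not tested.

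Signs reversed only in values near 0 that passed no test. With median centring the SPRED2 log2 fold change became 0.031 with palbociclib and with the combination against untreated and 0.012 for the mean palbociclib effect. Leaving out 1 library, it ranged from −0.13 to 0.019 with palbociclib, from −0.13 to 0.019 with the combination and from −0.13 to 0.019 in the combination against ATRA. SPRY2 ranged from −0.028 to 0.15 in the combination against ATRA, from −0.028 to 0.15 for the departure from additivity and from −0.014 to 0.076 for the mean palbociclib effect, and DUSP6 from −0.38 to 0.014 for the departure from additivity. The 6 members below the filter were limited by the whole-number scale.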

Other observations

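The table holds 24 genes with a DUSP number as symbol, of which 8 passed the filter and 9 were listed at 0 in every library. Beside DUSP2, 1 further gene of the 8 passed for the mean ATRA effect, where 9.62% of all tested genes passed. It was DUSP3, a small phosphatase of ERK and JNK that was in none of the lists and was picked after its values were seen. DUSP3 averaged 18.3 RPKM untreated, 10.7 with ATRA, 18 with palbociclib and 11 with the combination (log2 fold change −0.74 ± 0.043, SE, limma adjusted p = 4.33e-07). DUSP14 averaged 10.7 RPKM untreated and 7.67 with ATRA and did not pass (−0.45 ± 0.085, limma adjusted p = 0.0025). DUSP12, DUSP23 and DUSP11, the other DUSP genes tested beside the members and DUSP7, did not pass, with mean ATRA effects between −0.12 and −0.03.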
